A study of Mus musculus with 6 samples.

Results

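The 8 genes described here, Epcam, Sox9, Sox4, Prom1, Cd24a, Cftr, Cldn4 and Cldn7, are markers of bile duct epithelium and of liver progenitor cells. They were chosen by symbol, as all probes whose RefSeq accession maps to 1 of these names, which gave 12 probes among the probes of 18342 named genes. All 8 genes were among the 15382 genes tested over the 6 arrays. Epcam, Sox9, Sox4, Cd24a and Cldn7 lay well above background on all 6 arrays, by the scanner software's own test. Prom1 and Cldn4 did so on 4 arrays and Cftr on 3, only among livers that had gone through NTBC withdrawal, so for these 3 genes the filter itself rests on that side of the comparison.

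RNA of 6 mouse liver samples was hybridised to 1 single-colour Agilent array each. Every mouse carried the deletion Fah_del_tm1Mgo on the BL6 background. Fah encodes the last enzyme of tyrosine breakdown, and NTBC (7.5 µg/ml in the drinking water here) blocks an earlier step and protects such mice from toxic intermediates. The strain labelled Fah had this deletion alone, and the strain labelled FCR had in addition Rag2_del_tm1Fwa and the common gamma chain deletion tm1Wjl, which together leave a mouse without mature T, B and NK cells. The groups were healthy Fah liver (n = 1) and normal FCR liver (n = 1), both on continuous NTBC, Fah tumour (n = 2) and inflamed FCR liver (n = 2). In each of the last 2 groups, replicate 1 had the NTBC regimen labelled off and replicate 2 the regimen 2xoff/on, with 2 courses of withdrawal. These 4 are called the withdrawn livers, although the labels do not give the phase in which each was taken. Age and sex of the mice are not used here, and nothing in the labels says that the samples came from separate mice, so p-values measure the spread between these arrays. No strain had more than 1 array of a regimen. In comparisons of the 4 groups, that spread is between the off and 2xoff/on arrays of a group, which also differ in slide. In models with terms for genotype and regimen, it is the disagreement of the strains across regimens.

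Values are log2 of the processed signal relative to the 75th percentile of the array, so that 0 is the level of that percentile and a step of 1 is a doubling. Differences are called where limma's adjusted p, over all genes tested, is under 0.05. Between 60.5% and 74.5% of spots lay well above background, and the 75th percentile signal was 363 to 374 on the arrays of healthy Fah, normal FCR and inflamed FCR replicate 1, and 722 to 890 on the others. Slide 1 held the continuous and off arrays and slide 2 both 2xoff/on arrays, so regimen and slide change together for replicate 2. The 12 hepatocyte identity genes tested were well above background on every array, and albumin (Alb) ranged from 8.79 to 10.3. In whole tissue, more cells of a type and more RNA per cell cannot be told apart.

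Bile ducts are lined by cholangiocytes, polarised epithelial cells that seal the duct lumen with tight junctions and adjust bile by secreting chloride and bicarbonate. In injured liver, cells with cholangiocyte and progenitor markers expand around the portal tracts, a response known as the ductular reaction. Epcam, Cldn4 and Cldn7 are also expressed by many carcinomas, and mature hepatocytes of healthy mice carry little of them.

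Promoter sequences for 6 of the 8 genes were present in the RefSeq table (GRCm38.p6), 8 promoters in all, from 250 bases before to 50 after the start. The sequences shown, 1 for each gene, are those of Epcam, Cldn4, Cldn7, Prom1 and Sox4, the genes that rose together after withdrawal and have an entry; Cd24a also rose and is named only. Cldn7 and Prom1 have a second entry, not shown. Capitals mark matches, on either strand, to the E-box CACCTG (read as CAGGTG on the other strand), which SNAIL and ZEB repressors of epithelial genes bind, to the Grainyhead motif AACCNGTT, to the RBPJ motif TGGGAA of Notch signalling and to the TEAD motif GGAATG.

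Epcam, chr17:87635729-87636028, plus strand: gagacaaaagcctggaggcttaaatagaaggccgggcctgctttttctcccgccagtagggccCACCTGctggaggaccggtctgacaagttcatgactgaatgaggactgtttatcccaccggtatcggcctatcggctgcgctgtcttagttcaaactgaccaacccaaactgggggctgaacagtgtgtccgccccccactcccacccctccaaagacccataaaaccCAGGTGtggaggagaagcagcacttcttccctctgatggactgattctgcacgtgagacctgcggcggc

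Cldn4, chr5:134946885-134947184, minus strand: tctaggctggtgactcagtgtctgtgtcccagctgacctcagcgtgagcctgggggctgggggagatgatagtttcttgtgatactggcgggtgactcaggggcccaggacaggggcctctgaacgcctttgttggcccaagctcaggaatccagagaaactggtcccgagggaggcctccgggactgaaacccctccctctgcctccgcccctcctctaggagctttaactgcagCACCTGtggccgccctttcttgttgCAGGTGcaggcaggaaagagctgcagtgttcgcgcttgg

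Cldn7, chr11:69965171-69965470, plus strand: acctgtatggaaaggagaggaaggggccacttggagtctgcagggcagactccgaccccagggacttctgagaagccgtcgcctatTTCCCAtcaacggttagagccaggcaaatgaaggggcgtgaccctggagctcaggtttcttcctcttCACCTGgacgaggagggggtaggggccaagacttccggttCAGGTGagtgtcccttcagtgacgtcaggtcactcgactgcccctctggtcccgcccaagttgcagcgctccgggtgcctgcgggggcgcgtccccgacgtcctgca

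Prom1, chr5:44101687-44101986, minus strand: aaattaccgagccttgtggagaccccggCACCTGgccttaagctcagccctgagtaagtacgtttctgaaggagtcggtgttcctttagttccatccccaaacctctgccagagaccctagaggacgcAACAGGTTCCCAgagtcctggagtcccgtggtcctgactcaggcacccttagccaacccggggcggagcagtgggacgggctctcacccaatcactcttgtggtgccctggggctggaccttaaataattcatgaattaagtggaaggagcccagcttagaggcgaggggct

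Sox4, chr13:28953650-28953949, minus strand: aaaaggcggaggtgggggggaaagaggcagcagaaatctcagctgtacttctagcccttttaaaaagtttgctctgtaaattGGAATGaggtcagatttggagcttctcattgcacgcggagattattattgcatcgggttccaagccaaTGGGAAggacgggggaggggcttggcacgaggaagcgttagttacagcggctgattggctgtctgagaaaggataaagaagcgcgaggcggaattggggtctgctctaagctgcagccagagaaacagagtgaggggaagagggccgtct

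The Epcam promoter held 2 matches to the E-box, at positions -187 and -19 from the start. Cldn4 held 2 as well, at -14 and 12, and Cldn7 held 2 at -97 and -57, beside an RBPJ match. Of 32851 promoters of this length in the table, 2.88% held 2 or more E-box matches, and 3 of the 8 promoters of these genes did. At least 1 match was present in 4 of 8, against 20.2% of all promoters. The Prom1 promoter had 1 E-box match and a Grainyhead match, AACAGGTT, whose last bases are shared with an RBPJ match. Its second promoter also matched the Grainyhead motif, as AACTGGTT, while 2.09% of all promoters do. RBPJ letters stood in 3 of 8 against 25.6% of all, TEAD letters (GGAATG) in 2 of 8 (Cldn7's other promoter and Sox4) against 14.7%, and the HNF1 letters GTTAAT in 0 of 8 against 7.1%. The Sox4 promoter held an RBPJ and a TEAD match and no E-box match. These matches describe letters only.

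After NTBC withdrawal, 6 of the 8 genes rose over both genotypes: Cd24a, Cldn4, Cldn7, Epcam, Prom1 and Sox4 (means of the 4 withdrawn arrays against the 2 continuous ones, in a limma model with terms for genotype and regimen). In the same test 13.9% of all genes rose. Prom1 and Cldn4 were not well above background on either continuous array and passed the filter through the withdrawn arrays only. A rise was thus the only direction in which they could be measured, here and in the counts that follow. Among the genes measured on every array, Cd24a, Cldn7, Epcam and Sox4 rose and Sox9 did not pass. For 7 of the 8 genes, every withdrawn array lay above both continuous arrays, as for 20.1% of all genes. The exception was Cftr. Likewise 7 of 8 lay above the continuous array of their own genotype on every withdrawn array, against 24.1% of all genes. The median difference was 3.86 over the 8 genes and -0.02 over all genes tested.

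**Figure D1:**
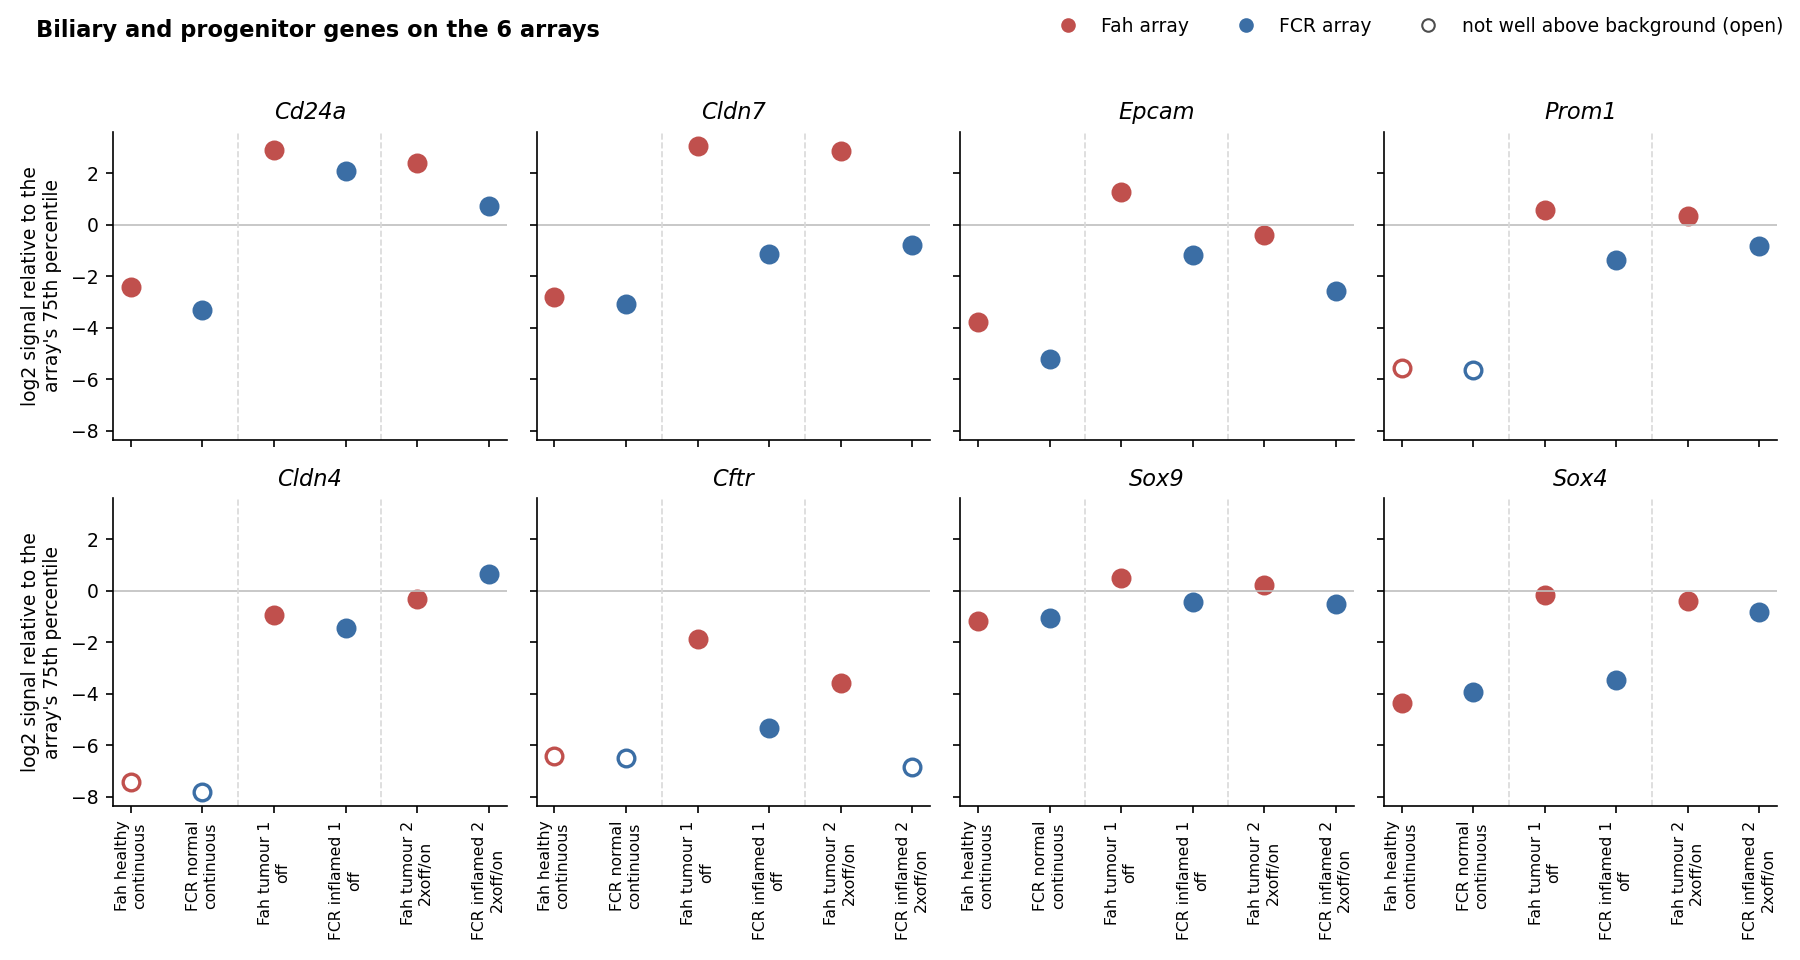
Level of each of the 8 genes on the 6 arrays, on the log2 scale with 0 at the 75th percentile of that array; red points are Fah arrays and blue points FCR arrays, in the order continuous, off and 2xoff/on, and open points are not well above background. The continuous arrays are the lowest for every gene but Cftr, and Cldn7 is near 3 on both tumour arrays and near -1 on both inflamed ones.

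Among the surface proteins, Cd24a, a small glycosylated adhesion protein anchored by lipid, was at -2.41 in healthy Fah and -3.33 in normal FCR liver. Tumours 1 and 2 had 2.91 and 2.40, and inflamed livers 1 and 2 had 2.09 and 0.74. All 4 withdrawn arrays were thus well clear of both continuous ones, with a fitted difference of 4.90 ± 0.33 (SE; limma adjusted p = 0.000184).

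Epcam, an adhesion molecule of simple epithelia that is found on cholangiocytes, was at -3.79 in healthy Fah and -5.20 in normal FCR liver. It stood at 1.26 and -0.41 in tumours 1 and 2, and -1.15 and -2.59 in inflamed livers 1 and 2. Within each regimen the Fah array was above the FCR array, and within each strain the off array was the highest. The difference for withdrawal was 3.77 ± 0.38 (limma adjusted p = 0.000974).

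Prom1 encodes CD133, a protein of membrane protrusions used to enrich progenitor cells. It was not well above background in either continuous liver, and reached 0.59 and 0.35 in tumours and -1.38 and -0.81 in inflamed livers. The rise was at least 32.0-fold (limma adjusted p = 0.000543). Such bounds set the mean of the withdrawn arrays against the dimmest signal that counted as well above background on the continuous ones. A second, dimmer Prom1 probe followed the same order between strains, with -0.09 and -0.83 in tumours and -3.53 and -1.89 in inflamed livers, and likewise not well above background on continuous NTBC.

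Of the tight junction members, Cldn4 was not well above background on continuous NTBC. It read -0.92 and -0.31 in tumours and -1.44 and 0.67 in inflamed livers, a rise of at least 28.1-fold (limma adjusted p = 0.000180). The highest array was inflamed liver 2, and the strains overlapped. Cldn7, a claudin that binds EpCAM directly, was at -2.81 in healthy Fah and -3.08 in normal FCR liver. The tumours had 3.07 and 2.86, but the inflamed livers -1.12 and -0.79. The difference for withdrawal was 3.95 ± 0.72 (limma adjusted p = 0.00738).

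Cftr, the chloride channel of the cholangiocyte's apical membrane, was well above background at -1.88 and -3.56 in tumours and at -5.34 in inflamed liver 1. On the continuous arrays and in inflamed liver 2 it was not. The bound on its rise was 1.87-fold and did not pass (limma adjusted p = 0.0839), and it did not under 9 of 10 alternatives. In the other, without inflamed liver 2, the FCR side has 1 withdrawn array left. No array measured a second Cftr probe well above background.

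Sox9, a transcription factor of the embryonic ductal plate and of adult ducts, had the smallest spread of the 8 genes, 1.66 between its highest and lowest array. It was at -1.16 and -1.04 on continuous NTBC, at 0.50 and 0.25 in tumours and at -0.43 and -0.52 in inflamed livers. The 3 classes of liver did not overlap, but the difference for withdrawal, 1.05 ± 0.35, did not pass (limma adjusted p = 0.0676). A second Sox9 probe overlapped, with 0.69 and -0.55 in tumours and -0.22 and -1.99 in inflamed livers against -1.16 and -0.995 on continuous NTBC. The remaining Sox9 probe was well above background in the tumours only, near the detection limit at -5.53 and -5.38.

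Sox4, which acts with Sox9 in bile duct development, was at -4.34 in healthy Fah and -3.94 in normal FCR liver. It was at -0.15 and -0.38 in tumours, -0.81 in inflamed liver 2 and -3.48 in inflamed liver 1. That last array was close to the continuous ones. The difference was 2.94 ± 0.69 (limma adjusted p = 0.0202). It passed neither with the authors' deposited values (2.09) nor with values floored at a common level (2.94), with an adjusted p up to 0.133. Flooring also ended the call of Cldn7 (0.0975). Both genes lay above that floor on every array, so their differences did not change. Only the spread shared over genes and the adjustment over all genes did. Normexp background correction with an offset, which compresses dim signals, gave smaller fitted differences that still passed, 1.84 for Epcam, 1.50 for Sox4, 2.54 for Prom1 and 2.48 for Cldn4.

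Within slide 1, which holds a continuous and an off array of each strain, the off array was higher for 8 of 8 genes in Fah mice, with a median difference of 5.19, and for 8 of 8 in FCR mice, with a median of 3.01. Over all genes these medians were -0.19 and 0.12, and 41.9% and 54.4% of all genes were higher on the off array. The smallest steps were those of Sox4 (0.47) and Sox9 (0.62) in FCR mice. Prom1, Cldn4 and Cftr were not well above background on either continuous array, so their filter rests on the withdrawn side of these counts. On the 2xoff/on arrays of slide 2, 8 of 8 genes in Fah and 7 of 8 in FCR mice stood above continuous NTBC, as did 51.2% and 49.3% of all genes. The exception was Cftr, which neither FCR array measured above background.

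Tumours of Fah mice and inflamed livers of FCR mice, which had the same regimens, gave 1 call among the 8 genes. Cldn7 was higher in tumour by 3.92 ± 0.51 (limma adjusted p = 0.0296), and 0.065% of all genes were called higher. For 7 of the 8 genes both tumour arrays lay above both inflamed arrays, as for 16% of all genes; Cldn4 overlapped. All other genes missed the threshold: Cftr, measured on 1 of 2 inflamed arrays, differed by 3.37 ± 0.87 (adjusted p = 0.226), Epcam by 2.30 ± 0.75 (0.356), Sox4 by 1.88 ± 0.84 (0.554), Prom1 by 1.56 ± 0.57 (0.424), Cd24a by 1.24 ± 0.59 (0.599), Sox9 by 0.85 ± 0.50 (0.699) and Cldn4 by -0.23 ± 0.78 (0.958). The median over all genes was -0.13 here, so these values are to be read against a small downward shift of the tumour arrays. The Cldn7 call was lost under 4 of 11 alternatives, quantile normalization, no filter, the authors' values and floored values (limma adjusted p up to 0.236). Over all 11 its size stayed between 3.59 and 4.16. With slide as a block, Epcam, Sox4 and Cftr passed as well, where 524 of all genes were called higher, against 10 in the main fit. In that fit each gene has 1 degree of freedom left for its own spread, so calls rest largely on the spread shared over genes.

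**Figure D2:**
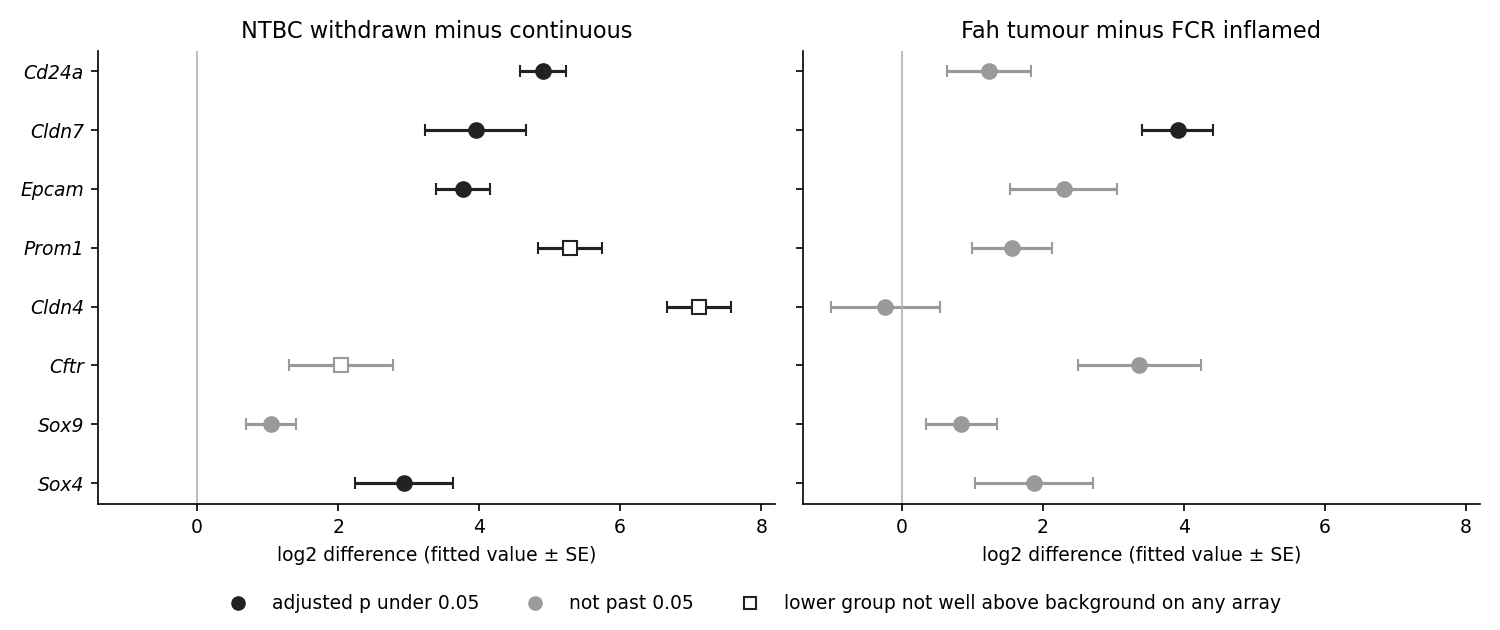
Fitted log2 differences with standard errors for the 8 genes, withdrawn minus continuous NTBC (left) and Fah tumour minus FCR inflamed liver (right); black marks an adjusted p under 0.05 and open squares a lower group in which no array was well above background, where the size is not a fold change. On the left 6 genes are black; on the right Cldn7 is the single black point, at 3.92.

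Each strain was also set against its own continuous array. In tumour against healthy Fah liver 5 of 8 genes were called higher, where 3.93% of all genes were called higher. Prom1 and Cldn4, among these 5, were not well above background in healthy liver and could only be measured as higher. Cldn7 differed by 5.77 ± 0.62 (limma adjusted p = 0.00372), Cd24a by 5.07 ± 0.73 (0.00899) and Epcam by 4.22 ± 0.92 (0.0360), and the bounds were 48.0-fold for Prom1 (0.00419) and 22.7-fold for Cldn4 (0.00841). Sox4, at 4.07 ± 1.03, narrowly missed (0.0594), Cftr had a bound of 5.26-fold (0.0906) and Sox9 differed by 1.53 ± 0.62 (0.223). The call of Epcam was lost without tumour 1 and under 4 other alternatives (adjusted p from 2.23e-10 to 0.236), and that of Cldn4 with the authors' values and with floored values. A fit with a withdrawn array left out keeps only 1 tumour or 1 inflamed array, so calls of Sox4 and Cftr gained there are not counted. Against healthy Fah liver, Sox4 was higher by 4.19 in tumour 1 and by 3.96 in tumour 2, with 1 array on each side.

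In inflamed against normal FCR liver 3 of 8 genes were called higher, where 1.55% of all genes were called higher. Prom1 and Cldn4, among these 3, were not well above background in normal liver and could only be measured as higher. Cd24a differed by 4.74 ± 0.73 (limma adjusted p = 0.0190), and the bounds were 34.8-fold for Cldn4 (0.00932) and 21.3-fold for Prom1 (0.0190). Epcam (3.33 ± 0.92, 0.125), Cldn7 (2.13 ± 0.62, 0.146), Sox4 (1.80 ± 1.03, 0.510) and Sox9 (0.57 ± 0.62, 0.799) missed, and Cftr was measured on 1 of 2 inflamed arrays. With the authors' values or floored values none of the 3 passed, Prom1 also missed under normexp, and its second probe, at 3.46, did not pass. Over all alternatives the Epcam difference ran from 1.06 to 4.11 and that of Sox4 from 0.47 to 3.13.

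The difference between the responses of the strains was tested directly, as tumour minus healthy less inflamed minus normal. No gene of the 8 passed, and 0% of all genes did (limma; 332 of 15382 had an unadjusted p under 0.05). Cldn7 was largest at 3.65 ± 0.88, with an unadjusted p of 0.00258 and an adjusted p of 0.9999. Sox4 was at 2.27 ± 1.46. For Cftr, Cldn4 and Prom1 no difference of responses is given, since neither continuous array measured them well above background. With slide as a block, where 97 of all genes were called, Cldn7 passed. A response called in Fah and not in FCR mice is therefore not shown to differ between them.

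The strains were also compared array by array within each regimen. On continuous NTBC the Fah array was above the FCR array for Epcam (1.41), Cd24a (0.91) and Cldn7 (0.27) and below it for Sox9 (-0.11) and Sox4 (-0.40). Prom1, Cftr and Cldn4 were not well above background on either of these arrays. Under the off regimen it was above in 8 of 8, by a median of 2.19, from 0.52 for Cldn4 to 4.19 for Cldn7. Under 2xoff/on it was above in 7 of 8, by a median of 1.41, from -0.98 for Cldn4 to 3.65 for Cldn7. The share of all genes with a higher Fah array was 43.0%, 39.4% and 47.8% under these regimens. The Sox4 gap was 3.33 under off and 0.43 under 2xoff/on.

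**Figure D3:**
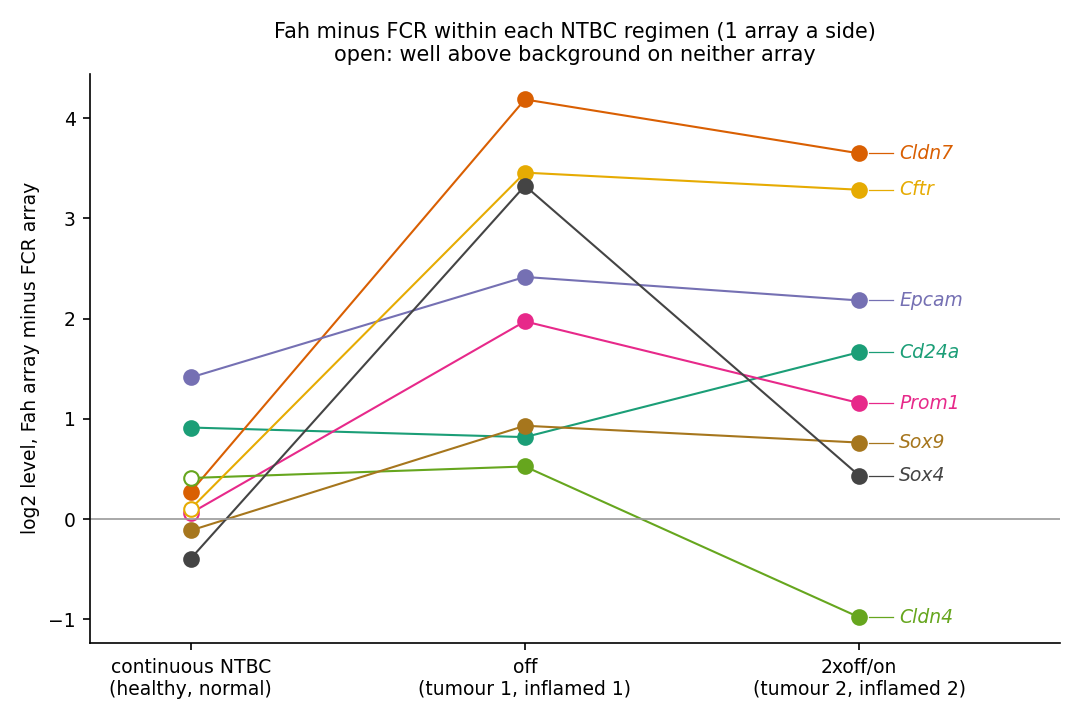
Log2 level of the Fah array minus that of the FCR array for each of the 8 genes under continuous NTBC, off and 2xoff/on, with 1 array on each side and hence no error bars; open points are genes not well above background on either array. Cldn7 goes from 0.27 to 4.19 and 3.65, and Cldn4 is at -0.98 under 2xoff/on.

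Over the 3 regimens together, Fah against FCR, with regimen as a term, gave no call among the 8 genes, while 0.293% of all genes were called. Epcam came nearest at 2.00 ± 0.36 (limma adjusted p = 0.105), followed by Cldn7 at 2.70 ± 0.68 (0.244) and Cd24a at 1.13 ± 0.31 (0.270). The Fah array was the higher in all 3 regimens for 5 of the 8 genes, as for 13.1% of all genes. Of these, Epcam, Cd24a and Cldn7 were measured on every array, while Prom1 and Cftr were not well above background on continuous NTBC. Both Epcam and Cldn7 passed under normexp background correction, where 349 of all genes were called, against 45 in the main fit. Leaving out either 2xoff/on array leaves only the arrays of slide 1 to estimate this difference, so both fits give the same estimate. Over the alternatives the difference ran from 1.38 to 2.07 for Epcam and from 1.96 to 2.86 for Cldn7. The all-gene median was -0.11 in this comparison.

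The regimens 2xoff/on and off, confounded with the slides, gave no call among the 8 genes, and 0.793% of all genes were called. Epcam was lower under 2xoff/on in both strains, by -1.67 in Fah and -1.44 in FCR (fitted -1.55 ± 0.44, limma adjusted p = 0.151). Cd24a was lower by -0.50 and -1.35, and Cftr by -1.68 in Fah mice, while in FCR mice it was well above background under off alone. Cldn4 went the other way, with 0.61 and 2.11, and both 2xoff/on arrays lay above both off arrays (1.36 ± 0.52, adjusted p = 0.248).

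The design text sets the 2 tumours against normal FCR liver and inflamed liver 2, which mixes regimens on the FCR side. In that fit of 4 arrays no gene of the 8 passed and 0% of all genes did (limma; 1751 of 15175 had an unadjusted p under 0.05). Cldn7 differed by 4.90 ± 0.79 and Cftr by at least 7.24-fold, both at an adjusted p of 0.296. Cd24a differed by 3.95 ± 1.29 (0.365). Without inflamed liver 2, normal FCR liver stands alone on that side, and calls in that fit rest largely on the spread shared over genes. Over the alternatives the Cldn7 difference ran from 4.19 to 6.04. The all-gene median was -0.15.

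The genes around these 8 were described from lists of cholangiocyte, progenitor, junction and signalling genes, after withdrawal against continuous NTBC; with 13.9% of all genes rising and 8.22% falling as background. Of 24 cholangiocyte genes tested, 11 rose and 1 fell, with a median of 1.61. The mucus peptide gene Tff3 rose by 5.12 ± 0.36, and the duct keratin genes Krt19 and Krt7 by 2.95 ± 0.40 and 2.83 ± 0.44. Ggt1, a glutathione-degrading enzyme of the ductal surface, also rose (limma adjusted p = 0.000392) but was measured on 1 of 2 continuous arrays, so no size is given. Onecut1, a transcription factor of hepatocytes and ducts, fell (-1.24 ± 0.29).

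Of 22 progenitor and ductular reaction genes, 14 rose and 0 fell, with a median of 3.51. Afp, the fetal serum protein, rose by 6.29 ± 0.42 and the fetal proteoglycan gene Gpc3 by 6.28 ± 0.34. Mmp7, a matrix protease of injured ducts, rose by 5.50 ± 0.45, and Tnfrsf12a, the receptor of the ductular mitogen TWEAK, by 3.71 ± 0.33. Of 20 epithelial identity and polarity genes, 10 rose and 1 fell. The membrane protease gene St14 and its inhibitor gene Spint1 rose by 4.27 ± 0.51 and 4.16 ± 0.63, Grhl1 rose by 2.73 ± 0.40 and Grhl2 by at least 5.86-fold; the Grhl2 call was lost under 5 of 10 alternatives, among them leaving out tumour 1 or inflamed liver 1. The splicing regulator Esrp2, which adult hepatocytes use, fell (-1.36 ± 0.29).

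Of 22 other claudins and tight junction genes, 5 rose and 1 fell, and the median was -0.11. Cldn23, Cldn8 and Cldn6 rose by at least 6.44-fold, 3.40-fold and 3.08-fold, and Cldn12 fell (-1.69 ± 0.31). Cldn3, the neighbour of Cldn4 on chromosome 5, did not pass (-0.77 ± 0.35, limma adjusted p = 0.148). Under normexp background correction the calls of these 3 rising claudins were lost and 2 genes of the list rose, and with the mean of probes 3 rose. Of 13 other SOX family genes, 1 rose and 1 fell; Sox11, the one that rose, was measured on 3 of 4 withdrawn arrays, and its difference changed sign with normexp and with the mean of its probes.

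Among signalling lists, 10 of 18 TGF-beta pathway genes rose and 0 fell, with the ligand gene Tgfb3 at 2.49 ± 0.37 and the receptor gene Tgfbr2 at 2.42 ± 0.31. Of 16 YAP and TEAD genes, 8 rose and 0 fell, among them the target gene Ankrd1 (3.92 ± 0.59) and the coactivator gene Wwtr1, which encodes TAZ (2.26 ± 0.31). Wwtr1 was at -1.11 and -0.70 on continuous NTBC and at -0.07 and -0.21 under off. It reached 2.90 and 2.79 on the 2xoff/on arrays, where regimen and slide cannot be told apart. Fewer genes of this list rose under normexp (7), quantile normalization (7), the authors' values (6) and flooring (2). Fewer also rose without inflamed liver 1, tumour 1 or tumour 2, and more without inflamed liver 2. Of 19 Notch pathway genes 1 rose, the ligand gene Jag2, by at least 1.80-fold, with the opposite sign under normexp. Hepatocyte identity genes went the other way: 7 of 12 fell, 0 rose, and Cyp2e1 and Cebpa were lowest at -2.55 ± 0.39 and -2.39 ± 0.51. Of these 12 genes 2 fell without tumour 2, 2 under quantile normalization, 3 with the authors' values and 0 when floored. With values floored at a common level, far fewer genes of all lists passed, for example 2 cholangiocyte and 6 progenitor genes. The hepatocyte genes lay above that floor on every array, so their own differences did not change. Only the spread shared over genes and the adjustment did.

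**Figure D4:**
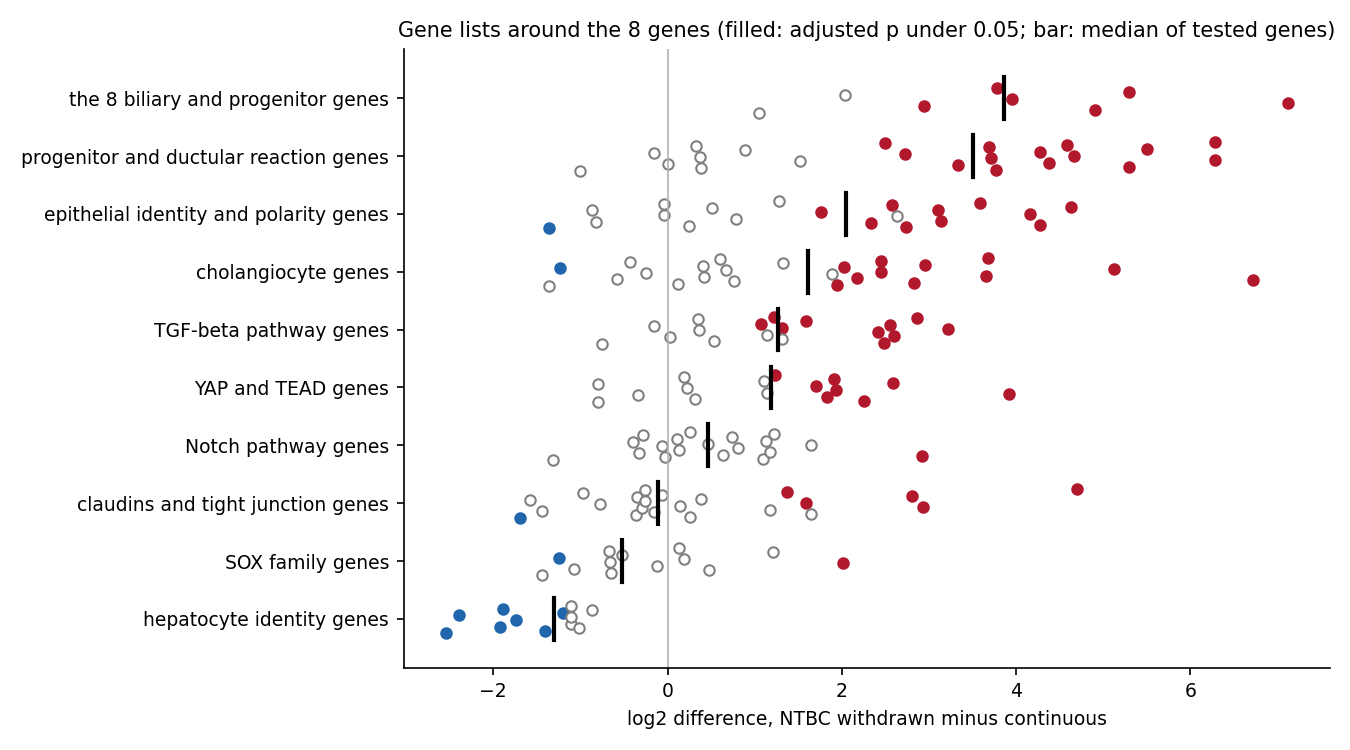
Log2 difference, withdrawn minus continuous NTBC, of each tested gene of the 8 and of 9 gene lists; filled points passed an adjusted p of 0.05 (red higher, blue lower), open points did not, and black bars are medians. The medians run from 3.86 for the 8 genes and 3.51 for the progenitor list to -1.30 for the hepatocyte list; differences of genes not measured on continuous NTBC are fitted values and not folds.

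Between tumour and inflamed liver, 1 gene of these 9 lists passed, in the direction opposite to Cldn7. Ggt1 was lower in tumour (-3.74 ± 0.53, limma adjusted p = 0.0390; 0.143% of all genes were called lower). It read -0.87 and -1.27 in tumours and 2.72 and 2.62 in inflamed livers. Its call was lost under 5 of 11 alternatives: quantile normalization, no filter, the authors' values, flooring and leaving out tumour 2. With slide as a block, 10 epithelial, 6 cholangiocyte and 4 progenitor genes were called higher in tumour, and 1 cholangiocyte gene lower. In that setting 524 of all genes were called higher, and calls rest largely on the spread shared over genes. The genes nearest to a call on the other side were Esrp1, an epithelial splicing regulator not well above background in inflamed liver (at least 9.36-fold, adjusted p = 0.0669), and Spint1 (3.08 ± 0.57, 0.0860). Between the regimens, Wwtr1 was higher under 2xoff/on by 2.99 ± 0.35 (0.0126).

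Markers of some other cells moved with the same comparison, and their part in the results was not tested. In that comparison 13.9% of all genes rose and 8.22% fell. None of 6 B cell and 8 endothelium markers was called. Of 5 erythroid markers 1 rose and 2 fell, and of 5 exocrine pancreas markers 1 rose and 1 fell. Of 4 mesothelium and 4 squamous markers, 1 each rose. After withdrawal 7 of 8 dividing cell markers rose, with a summed signal (in units of the 75th percentile) of 3.1 to 3.60 on continuous and 17.4 to 62.9 on withdrawn arrays. Of 8 neutrophil markers 7 rose, from 0.85 to 1.14 up to 12.5 to 39.5. Stellate cell and fibroblast markers rose in 5 of 8, from 35.6 to 37.4 up to 94.0 to 205, and macrophage markers in 2 of 7, from 31.1 to 41.6 up to 42.0 to 404. The macrophage count was 6 without inflamed liver 2, 5 under normexp, and 1 without inflamed liver 1, under quantile normalization or with the authors' values. The summed hepatocyte genes were 2227 to 2742 on continuous and 823 to 1287 on withdrawn arrays. Between tumour and inflamed liver, dividing cell markers summed to 46.3 and 62.9 against 17.4 and 28.9, and stellate markers to 186 and 205 against 117 and 94.0. No marker of either set was called there. Neutrophil markers summed to 12.5 and 31.0 against 21.4 and 39.5, and macrophage markers to 83.6 and 156 against 404 and 42.0. The squamous keratin gene Krt5 was called lower in tumour (-4.98 ± 0.54, limma adjusted p = 0.0153), at -3.14 and -3.16 against 1.59 and 2.07 in inflamed livers; the call was lost with the authors' values and when floored. Of 5 gut epithelium markers tested 2 rose after withdrawal, Vil1 by 3.38 ± 0.59 and Cdh17 by at least 1.99-fold. The Cdh17 call was lost under 4 of 10 alternatives, among them leaving out tumour 1. The gut markers Cdx1 and Cdx2 were not well above background on any array.

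Likeness to other genes was measured by Pearson's r over the 6 arrays, among 12675 genes with a range of at least 1, as a description: the points are the same arrays that share the step from continuous to withdrawn, and between 91 and 438 genes exceed 0.95 for each of the 8. Cldn7 was most like Rab25, a vesicle protein of polarised epithelia (r = 0.998), then Kif12. Sox9 was most like Gdf10, Otulinl and Spint1. Prom1 was most like Kif18b, Cdc6 and Cdc20, all genes of the cell cycle (r = 0.998 to 0.999). Epcam was most like Runx1t1, Tmem45a and Pcdh20, Cd24a like Cip2a, Tac4 and Tlr1, and Sox4 like Hs2st1, Actc1 and Mxd3. Cftr was most like Dennd2d, Islr and Fbn2, and Cldn4 like Fndc10 and Igf2. The mean of the 8 genes was most like Kdelr3, St14 and Il17re.

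Of the 16 genes that flank these 8 in the annotation, 13 were tested after withdrawal. In that test 13.9% of all genes rose, and 3 of these 13 did. They were Fgfbp1 beside Prom1 (3.81 ± 0.46, limma adjusted p = 0.00154), Cttnbp2 beside Cftr (2.01 ± 0.44, 0.0159) and the glucose transporter gene Slc2a4 beside Cldn7 (2.11 ± 0.47, 0.0165). Between tumour and inflamed liver Slc2a4 differed by -1.27 and did not pass (adjusted p = 0.674). None of the neighbours of Epcam, Cd24a and Cldn4 passed after withdrawal.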

How the data were processed

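RNA of 6 mouse liver samples was measured on 1 single-colour array each. Per the file headers, the arrays were read by Agilent Feature Extraction 10.7.3.1, and the submitters' processing notes name 10.5. The deposited scanner files hold a processed intensity per spot, from which that software had subtracted background, with no scaling between arrays. The authors' deposited table gives 1 log2 value for each probe and array, scaled to array medians between 6.46 and 6.48 by a method not named in the sources used here. Against the scanner's log2 median signal of the same array, r was 0.996 to 0.999. That table was used only as an alternative.

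Control and outlier spots were left out, as were 29 probes missing on an array. Log2 of the processed intensity minus the array's 75th percentile was used. Of 41174 probes, 26912 were named through a RefSeq table of GRCm38.p6, which served for names, neighbours and promoters only, since the array design follows another build. A gene was read from its probe with the highest mean, for 6535 genes chosen among several. A gene entered a fit if at least 2 of its arrays were well above background, and limma 3.58.1 (R 4.3.3; lmFit, eBayes with trend) gave the tests, two-sided, with Benjamini-Hochberg adjustment over all genes tested. Models of 4 group means or of genotype plus regimen used all 6 arrays, and the comparison of the design text its 4 arrays. A group of 1 array was taken to vary like the other groups. The scripts were tested on simulated data.

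Alternatives were normexp background correction (offset 50), quantile normalization, no filter, the mean of a gene's probes, each other probe, the authors' values, slide as a block and leaving out each array of a pair; values floored at -5.12 were added after seeing the data. Replicate numbers follow sample order, and arrays are matched across strains by regimen alone. The 8 genes, the gene lists and the tests were chosen with earlier results of these data known. Named genes are the 8, list genes that passed or had the largest differences, and the 3 most alike to each; some genes that this rule names are not reported here. The number of arrays limits the precision.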

Additional observations from a re-analysis of the deposited data

Results flagged for a closer look

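Between the regimens 2xoff/on and off, 3 of the 8 genes moved in opposite directions in the 2 strains, with 1 array for each strain and regimen, so the difference between strains was not tested. Sox4 was higher under 2xoff/on in FCR mice (2.67) and lower in Fah mice (-0.22), a gap of 2.89. Prom1 differed by 0.58 in FCR and -0.24 in Fah mice, a gap of 0.815. Cldn7 differed by 0.33 in FCR and -0.21 in Fah mice, a gap of 0.538. The off and 2xoff/on arrays lie on different slides, so regimen and slide cannot be told apart. Groups of 1 or 2 arrays are too small for a search for single outlying arrays.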

How the results depend on the processing

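After withdrawal, the count of called genes among the 8 was 6 under normexp, quantile normalization, no filter and the mean of probes, 5 with the authors' values, 4 with floored values and 6 to 7 with single arrays left out; no sign changed. For tumour against inflamed liver it fell from 1 to 0 under quantile normalization, no filter, the authors' values and flooring, rose to 4 with slide as a block, and was 1 to 2 with single arrays left out. For tumour against healthy liver it fell from 5 to 3 with the authors' values and 0 when floored (5 to 7 with arrays left out; 7 with slide as a block). For inflamed against normal liver it fell from 3 to 0 with the authors' values and when floored, and was 5 with slide as a block and 3 to 4 with arrays left out. Slide as a block gave 1 call for the difference of responses. Over 3 regimens Fah against FCR gave 2 under normexp and 0 to 2 with arrays left out, 2xoff/on against off gave 1 under normexp, and the design text comparison gave 0 to 7 with arrays left out, 7 without inflamed FCR replicate 2.

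Signs changed in these cases. Cldn4 ran from -1.28 to 0.83 between tumour and inflamed liver with arrays left out, from -1.69 to 0.42 in the difference of responses and from -0.29 to 0.47 for Fah against FCR, and Cd24a from -0.35 to 1.00 in the difference of responses. For inflamed against normal liver, the second Sox9 probe gave -0.11 and Cftr -0.29 under normexp, or -0.35 to 1.16 with arrays left out. Cftr was not well above background in normal FCR liver or inflamed liver 2, so its sign there is not a measured direction. For 2xoff/on against off, Cldn7 gave -0.030 under normexp, -0.088 under quantile normalization, -0.10 with the authors' values and -1.05 to 1.18 with arrays left out; Sox9 gave 0.24 with its dimmest probe and -0.48 to 0.13, Sox4 -0.43 to 2.87 and Prom1 -0.51 to 0.85 with arrays left out. The causes were not tested.

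Counts over all genes moved more. Flooring cut the 3402 calls after withdrawal to 428 and gave 0 in every other comparison. It also changed the spread shared over genes. Genes above the floor on every array, such as Sox4 and Cldn7, lost calls without a change in their differences. Slide as a block raised the calls from 32 to 984 for tumour against inflamed liver, from 778 to 2544 for tumour against healthy, from 270 to 1909 for inflamed against normal and from 0 to 97 for their difference. Normexp moved the counts to 191 for tumour against inflamed liver, 349 (from 45) for Fah against FCR and 658 (from 122) for 2xoff/on against off, and the share of higher calls from 77.6% to 59.2% for tumour against healthy, 88.5% to 68.2% for inflamed against normal, 44.4% to 32.4% for Fah against FCR, 62.8% to 50.1% after withdrawal and 86.9% to 57.1% for 2xoff/on against off. Quantile normalization gave 12, 472, 117, 13 and 56 calls for tumour against inflamed, tumour against healthy, inflamed against normal, Fah against FCR and 2xoff/on against off, and the authors' values 4, 263, 54, 10 and 78. With single arrays left out these 5 counts ran from 56 to 799, 500 to 2371, 458 to 1807, 0 to 352 and 0 to 624, and the design text comparison from 0 to 2265. No filter gave 11, 159, 73 and 205 for tumour against inflamed, inflamed against normal, Fah against FCR and 2xoff/on against off, and the mean of probes 27 and 46 for the last 2. Of 100 list genes called after withdrawal, 19 passed under every alternative, 40 were lost only when floored, and 2 changed sign. Prom1, Cldn4 and Cftr have only bounds where no array of a group was well above background.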
